A study of Gallus gallus with 58 samples.

Results

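The mitosis genes are 40 genes that act while a cell divides its chromosomes and then itself in 2. They were listed by name, with earlier results of these data known, and a gene counted as measured where a probe set of the array carried its symbol alone. By that rule 34 of the 40 were measured, among 11528 genes with a symbol of their own on the array. The 6 that were not measured by this rule are CCNA2, CCNB2, AURKA, CENPE, KIF4A and DLGAP5, and they are not analysed here. Where a member had several probe sets, as 5 did, the brightest by its mean over the 58 arrays was used.

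The chicks (Gallus gallus) were injected on the day they hatched with CpG-ODN 2007, a short synthetic DNA that activates TLR21, an innate immune receptor of chickens, or served as controls. RNA of whole blood from 58 different chicks was hybridised to 1 Affymetrix array each. The groups were CpG chicks and control chicks at 3 h after the injection (10 and 10 chicks), at 3 days (D3, 8 and 8) and at 6 days (D6, 10 and 12). The labels do not give the breed, the sex, the hybridisation batch or what the control chicks received, and every chick was sampled once.

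In a dividing cell, CDK1 with a B-type cyclin starts mitosis, the spindle of microtubules captures chromosomes at their kinetochores, and a checkpoint holds the cell until all of them are attached. CDC20 then switches on the anaphase-promoting complex, the sister chromatids part, and the cell is pinched in 2. Most of these genes are transcribed together late in the cell cycle and fall silent in cells that rest, so their transcripts are widely used as a mark of dividing cells. The red cells and thrombocytes of birds keep their nuclei, and whole blood mixes their RNA with that of white cells. The roles given below are known mainly from human, mouse and yeast cells.

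Values are log2 expression values as deposited, and a log2 difference of 1 is a 2-fold difference. A gene is said to have risen, fallen or passed the test where its p-value from limma, adjusted by Benjamini-Hochberg over all 20804 probe sets of the table, was below 0.05. The error of a difference is limma's standard error (SE). Array medians lay between 6.64 and 6.78, and arrays of 1 group correlated with a median r of 0.971 to 0.974, depending on the group. In that measure 4 arrays stood apart from their groups, namely those of CpG D3 chick 20, CpG D6 chick 31, control 3 h chick 74 and control D3 chick 86. Of the 34 members, 7 had a mean below 6.26, the level under which 40% of all probe sets lay. All 34 were tested.

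The mean level of the mitosis genes was low in blood at 3 h, high at D3 and lower again at D6, and at D3 and D6 its group mean was lower in CpG chicks than in control chicks. Each member's values were turned into z-scores over the 58 arrays and averaged into 1 score per chick. The score was -0.47 ± 0.24 in CpG chicks and -0.62 ± 0.20 in control chicks at 3 h (mean ± SD). At D3 it was 0.41 ± 0.61 in CpG chicks and 1.11 ± 0.66 in control chicks. At D6 it was -0.46 ± 0.27 in CpG chicks and 0.28 ± 0.71 in control chicks. Every one of the 8 control chicks at D3 scored above all control chicks at 3 h, against 5 of 8 CpG chicks above all CpG chicks at 3 h. At D6, 9 of 12 control chicks scored above all control chicks at 3 h, while none of the 10 CpG chicks scored above all CpG chicks at 3 h. These counts rest on unlike upper limits. The highest 3 h score was 0.08 in CpG chicks, from chick 2 alone, and -0.24 in control chicks. The next highest CpG score at 3 h was -0.26. Above that lay CpG chicks 26 (0.01) and 34 (-0.11) at D6, and all CpG chicks at D3 but chick 18 (-0.40).

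**Figure D1:**
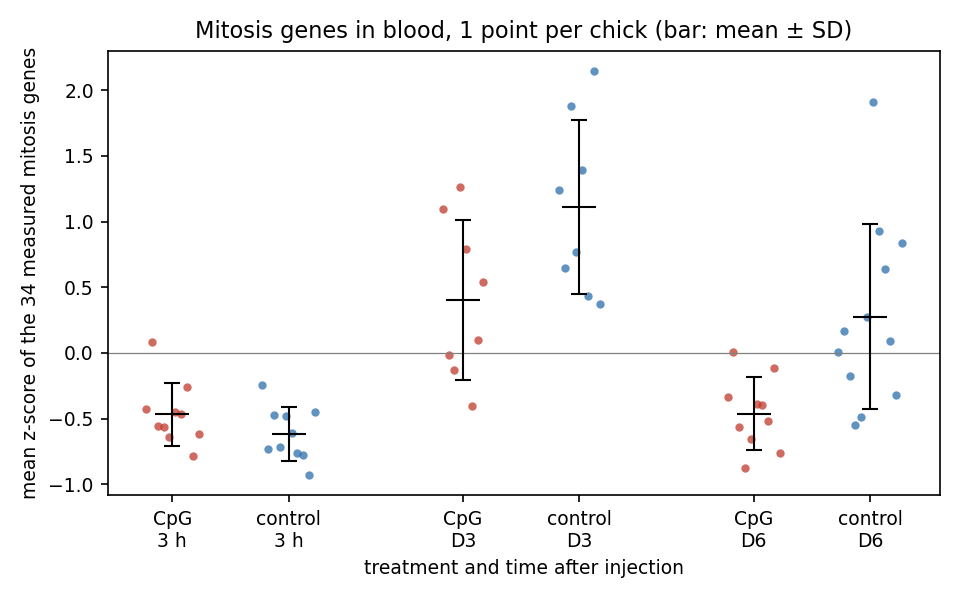
Mean z-score of the 34 measured mitosis genes (vertical axis, in SD units) in each chick (points), by treatment and time; bars give the mean and SD of each group. Control chicks at D3 lie between 0.37 and 2.15, above all chicks at 3 h, and CpG chicks at D6 lie between -0.88 and 0.01.

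The groups overlapped within a time. At D3 the score of 4 of 8 CpG chicks lay below that of every control chick, and 3 of 8 control chicks lay above every CpG chick. At D6, 4 of 10 CpG chicks lay below every control chick, and 7 of 12 control chicks lay above every CpG chick. In bulk blood, fewer dividing cells and less of this RNA per cell cannot be told apart. Since each time was sampled in other chicks on another day, age and day of sampling cannot be told apart either.

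**Figure D2:**
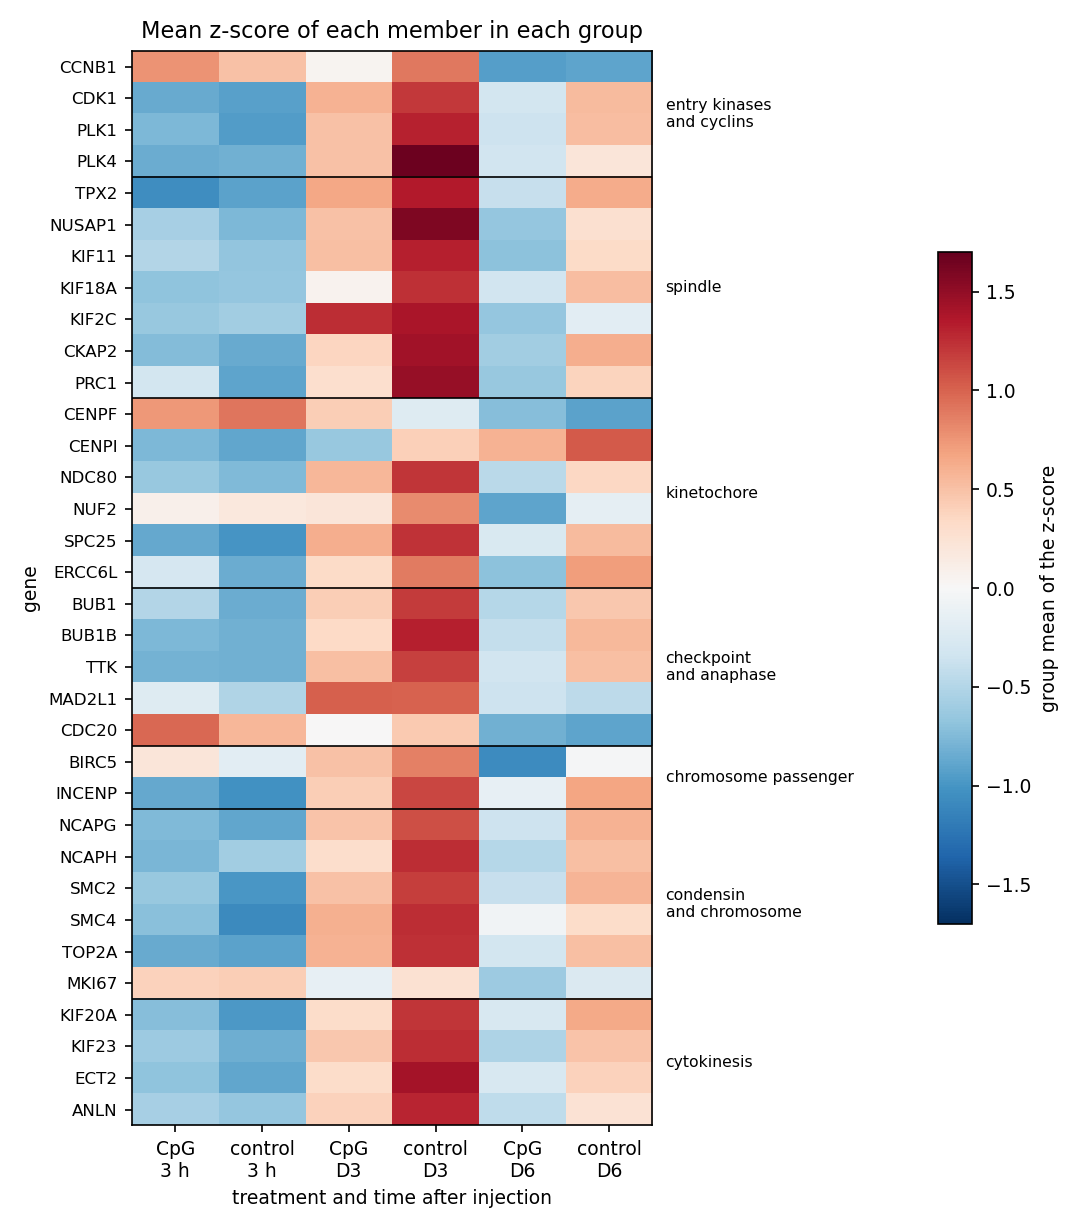
Mean z-score (colour) of each of the 34 members (rows, ordered by role) in the 6 groups (columns). Most rows are blue at 3 h, darkest red in control chicks at D3, and lower in CpG than in control chicks at D3 and D6; CCNB1, CENPF, CENPI, NUF2, MAD2L1, CDC20, BIRC5 and MKI67 depart from this pattern.

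In control chicks, D3 was set against 3 h to follow these genes in blood over the first days without CpG. Of the 34 members 28 rose and 1, CENPF, fell, with a median difference of 1.09, while 11.8% of all probe sets were called higher and 13.0% lower. The median over all genes was 0.00. By role, 3 of 4 entry kinases and cyclins rose, 7 of 7 spindle genes, 4 of 6 kinetochore genes, 4 of 5 checkpoint and anaphase genes, 1 of 2 chromosome passenger genes, 5 of 6 condensin and chromosome genes, and 4 of 4 cytokinesis genes. The values of 15 members lay higher in every D3 control chick than in every 3 h control chick, which held for 1.52% of all probe sets.

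The rise was seen in kinases that act in cell division. CDK1, the kinase that drives entry into mitosis, had a lowest, median and highest value of 7.04, 8.03 and 9.31 in D3 control chicks, against 5.74, 6.18 and 6.75 in 3 h control chicks. The groups did not overlap, and the difference was 1.92 ± 0.27 (limma adjusted p = 2.54e-07). PLK4, the kinase that starts the duplication of centrioles, had 7.07, 7.62 and 8.79 in D3 control chicks, against 5.53, 5.74 and 6.79 in 3 h control chicks. It too was higher in all D3 chicks, by 1.87 ± 0.20 (limma adjusted p = 4.37e-10).

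The member with the largest rise was a spindle gene. NUSAP1, a protein that bundles spindle microtubules around chromosomes, had 7.97, 8.58 and 9.31 in D3 control chicks, against 5.53, 6.54 and 6.83 in 3 h control chicks. That is a difference of 2.16 ± 0.27, or 4.46-fold (limma adjusted p = 1.11e-08), with no overlap. TPX2, which binds Aurora A kinase and promotes spindle assembly, had 8.61, 8.95 and 9.98 in D3 control chicks, against 6.80, 7.39 and 7.72 in 3 h control chicks, and rose by 1.80 ± 0.18 (limma adjusted p = 1.07e-10). CKAP2, a microtubule protein of the spindle, rose by 1.59 ± 0.19 and KIF11, the kinesin that pushes spindle poles apart, by 1.47 ± 0.25. In these 3 genes as well all D3 control chicks exceeded all 3 h control chicks.

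Genes of chromosome structure, attachment and cytokinesis rose in the same comparison. TOP2A, the topoisomerase that untangles sister chromatids, rose by 2.05 ± 0.29, and SMC2, a core subunit of condensin, by 1.90 ± 0.28. All 8 D3 control chicks exceeded the 3 h control chicks in TOP2A and 7 of 8 did in SMC2. SMC4, the partner of SMC2, rose by 1.07 ± 0.14. SPC25, a subunit of the NDC80 complex that ties kinetochores to microtubules, rose by 1.68 ± 0.21, and the checkpoint kinases TTK and BUB1B by 1.41 ± 0.23 and 1.35 ± 0.20. INCENP, the scaffold of the chromosome passenger complex, rose by 0.88 ± 0.12, and ECT2, which activates the contractile ring, by 1.22 ± 0.17.

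In control chicks, D6 against D3 showed a partial return. Of the members 13 fell and none rose, with a median of -0.47, and 7.95% of all probe sets were called lower. The median over all genes was 0.04. Of the 13, 6 are spindle genes. NUSAP1 fell by 1.21 ± 0.26 (limma adjusted p = 0.000875) and PLK4 by 1.10 ± 0.19 (8.35e-05), and 11 of 12 D6 control chicks lay below all D3 control chicks in PLK4. CCNB1, a B-type cyclin, fell by 1.07 ± 0.18 (4.47e-05), KIF2C, a kinesin that takes microtubules apart at centromeres, by 0.67 ± 0.11 (3.12e-05), and CDC20 by 0.57 ± 0.14 (0.00323). KIF11, ANLN (anillin, a scaffold of the contractile ring), TPX2, CKAP2 and ECT2 fell by between 0.54 and 0.73. Without control D3 chick 87 or 91 the count was 7, without control D6 chick 103 it was 26, and it was 21 without the 4 arrays that stood apart (20 lower, 1 higher). Of the 10 members with the largest falls, KIF11, ANLN, CKAP2, TPX2 and ECT2 lost their call without 1 array or another. With 6 cell type scores as covariates, described at the end with the blood cell markers, 3 members passed.

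At D6, control chicks still stood above those at 3 h. Of the members 26 were higher and 3 lower, with a median of 0.66, while 26.2% of all probe sets were called higher and 21.7% lower. TPX2 was higher in all 12 D6 control chicks than in all 3 h control chicks, by 1.23 ± 0.17 (limma adjusted p = 1.61e-08). CENPI lay wholly above as well, which held for 3.55% of all probe sets. SMC2 rose by 1.38 ± 0.25, TOP2A by 1.36 ± 0.26, CDK1 by 1.32 ± 0.25, SPC25 by 1.16 ± 0.19 and CKAP2 by 1.03 ± 0.17. NUSAP1, TTK, PLK1 and BUB1B rose by between 0.86 and 0.95, and KIF20A, a kinesin of the midzone, by 0.78 ± 0.14. PLK1 is a kinase of centrosomes and chromosome separation. The 3 lower members were CCNB1, CDC20 and CENPF, described further on. For CENPF this holds for the used probe set alone, since its other probe set was higher by 0.87 (limma adjusted p = 0.000647). With the cell type scores 15 members passed, all of them higher.

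CpG chicks were then set against control chicks at each time. At 3 h none of the 34 members passed the test with limma, none had an unadjusted p below 0.05, and 0% of all probe sets were called in either direction. The count was 0 under each of the 8 alternative settings and with each of the 20 arrays left out. The median member difference was 0.07, and 26 of 34 differences were above 0. TPX2 differed by -0.11 ± 0.17 (95% interval -0.46 to 0.23) and PLK4 by -0.01 ± 0.19 (-0.39 to 0.37).

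At D3 the mitosis genes were lower in CpG chicks in 32 of 34 cases, with a median difference of -0.44 against -0.01 over all genes. Only PLK4 passed the test, where 0.0721% of all probe sets were called lower, and 22 members had an unadjusted p below 0.05. PLK4 was already known from earlier results of these data, so its call is no separate evidence. Members moved together across chicks of a group, with a median pairwise correlation of 0.504 after group means were removed. Counts of members, here and below, are therefore not counts of separate observations. The share of all probe sets with an unadjusted p below 0.05 is not given here. PLK4 had a lowest, median and highest value of 6.28, 6.89 and 7.75 in CpG chicks, against 7.07, 7.62 and 8.79 in control chicks. The groups overlapped, with 4 of 8 CpG chicks below all control chicks. It fell by 0.87 ± 0.21 (95% interval -1.30 to -0.45, limma adjusted p = 0.0432), a level 0.546 times that of control chicks. The call was lost when any 1 of 9 of the 16 arrays was left out, with array weights (limma adjusted p = 0.0585), with repeated quantile normalization (0.0518), without the arrays that stood apart (0.0675), when the D3 arrays were fitted alone (0.242), and with cell type scores as covariates (0.0941). Without control chick 90, 4 members passed.

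The other members with the smallest p of their role at D3 did not pass the test. CKAP2 differed by -0.74 ± 0.20 (limma adjusted p = 0.0866), ECT2 by -0.59 ± 0.18 (0.11), CENPI by -0.27 ± 0.09 (0.134), BUB1B by -0.62 ± 0.21 (0.153), NCAPH, a regulatory subunit of condensin, by -0.43 ± 0.16 (0.197), and INCENP by -0.30 ± 0.13 (0.263). TPX2 had 8.09, 8.48 and 9.35 in CpG chicks, against 8.61, 8.95 and 9.98 in control chicks, a difference of -0.55 ± 0.19 (0.164). The lowest 4 CpG chicks lay below all control chicks in TPX2.

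At D6, 4 members fell in CpG chicks and none rose, where 0.591% of all probe sets were called lower. Differences were below 0 in 31 of 34 members, with a median of -0.44 against -0.01 over all genes, and 25 members had an unadjusted p below 0.05. The 4 were TPX2, CKAP2, NUSAP1 and ERCC6L, of which the first 3 belong to the spindle. TPX2, like PLK4, was already known from earlier results of these data.

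TPX2 had a lowest, median and highest value of 7.16, 7.70 and 8.27 in CpG chicks, against 7.94, 8.41 and 9.55 in control chicks. In it 8 of 10 CpG chicks lay below every control chick, and it fell by 0.81 ± 0.17 (95% interval -1.14 to -0.48, limma adjusted p = 0.0031), to 0.571 times the control level. CKAP2 had 5.89, 6.43 and 6.79 in CpG chicks, against 6.61, 7.10 and 8.30 in control chicks. Here 7 of 10 CpG chicks lay below every control chick, and the fall was 0.85 ± 0.17 (-1.20 to -0.50, limma adjusted p = 0.00318).

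ERCC6L, a DNA translocase that coats the fine DNA threads between parting chromatids, had 5.98, 6.23 and 6.84 in CpG chicks, against 6.39, 6.70 and 7.13 in control chicks. Its fall of 0.41 ± 0.10 (95% interval -0.60 to -0.22, limma adjusted p = 0.0111) came with 7 of 10 CpG chicks below every control chick. NUSAP1 had 5.83, 6.51 and 7.18 in CpG chicks, against 6.26, 7.41 and 8.97 in control chicks, and only 2 of 10 CpG chicks lay below every control chick. It fell by 0.85 ± 0.24 (-1.33 to -0.37, limma adjusted p = 0.0412). The calls of TPX2, CKAP2 and ERCC6L were kept when each of the 22 arrays was left out in turn, and that of NUSAP1 was lost with any 1 of 11. With 6 cell type scores as covariates all 4 calls were lost, with limma adjusted p = 0.278 for TPX2, 0.200 for CKAP2, 0.408 for ERCC6L and 0.412 for NUSAP1. A lost call is not by itself an absent difference, and the medians over the members in that fit are given at the end.

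**Figure D3:**
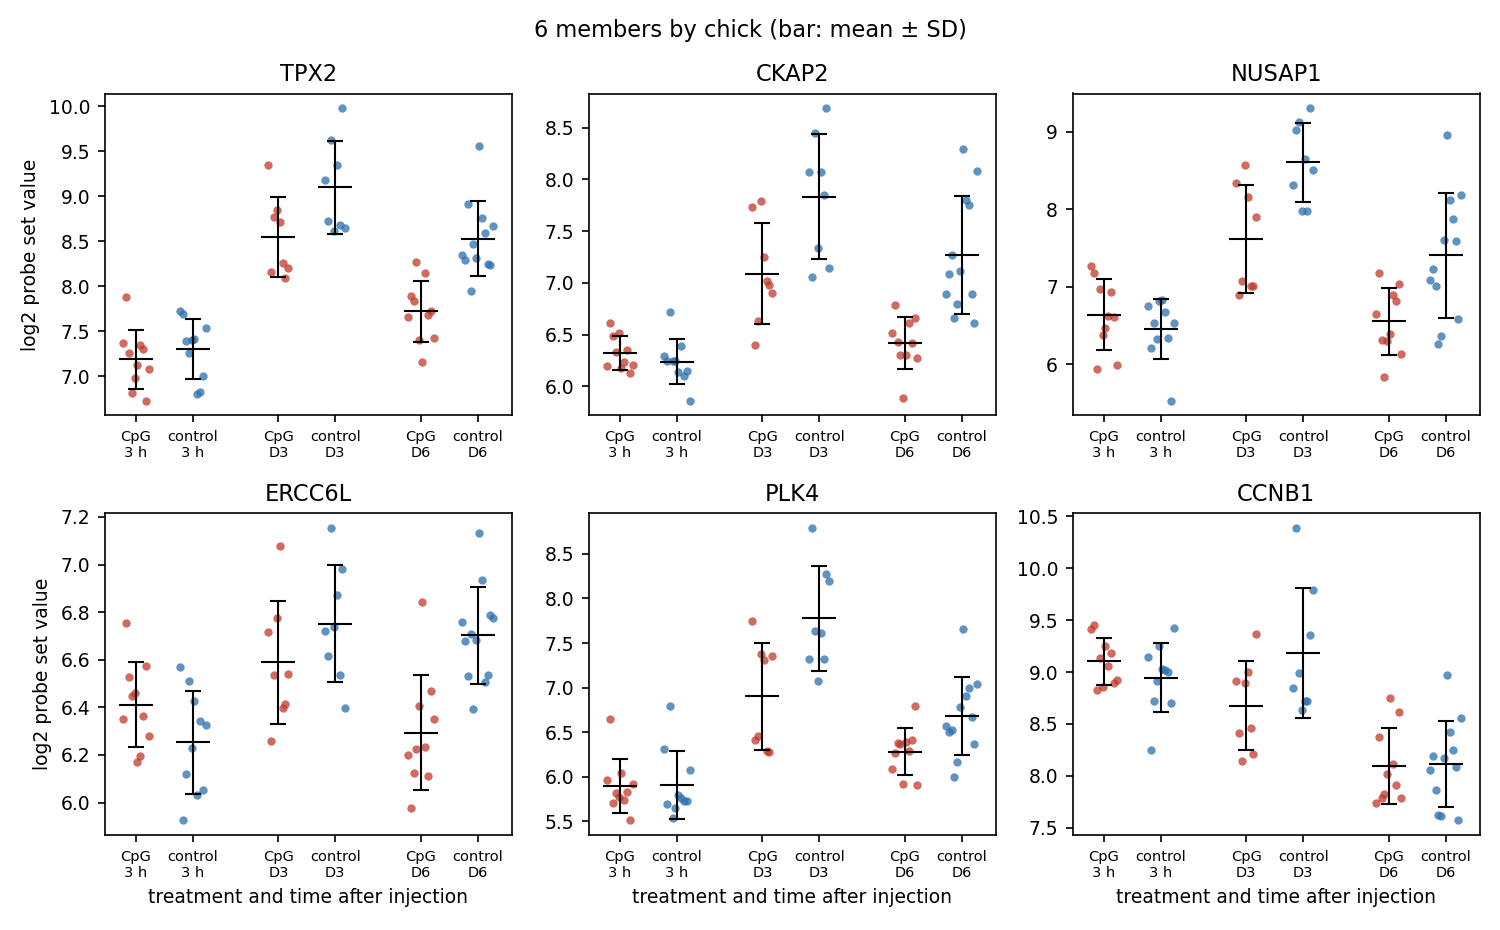
Log2 probe set values of TPX2, CKAP2, NUSAP1, ERCC6L, PLK4 and CCNB1 in each chick (points), by treatment and time; bars give the mean and SD. TPX2 and CKAP2 in CpG chicks at D6 lie mostly below all control chicks of that time, while CCNB1 is low in both treatments at D6.

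The members with the smallest p of the other roles did not pass at D6. SMC2 differed by -0.85 ± 0.25 (limma adjusted p = 0.0509), KIF23, a kinesin of the midzone, by -0.49 ± 0.15 (0.0578), BUB1B by -0.60 ± 0.18 (0.06), PLK1 by -0.53 ± 0.16 (0.0717) and INCENP by -0.33 ± 0.11 (0.109). PLK4 differed by -0.40 ± 0.18 (0.292). The D6 count depended on single chicks and settings. It was 12 without control chick 100 or 101, which had low scores, 12 with array weights, 9 when dim probe sets were left out of the table, and 3 without the arrays that stood apart.

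**Figure D4:**
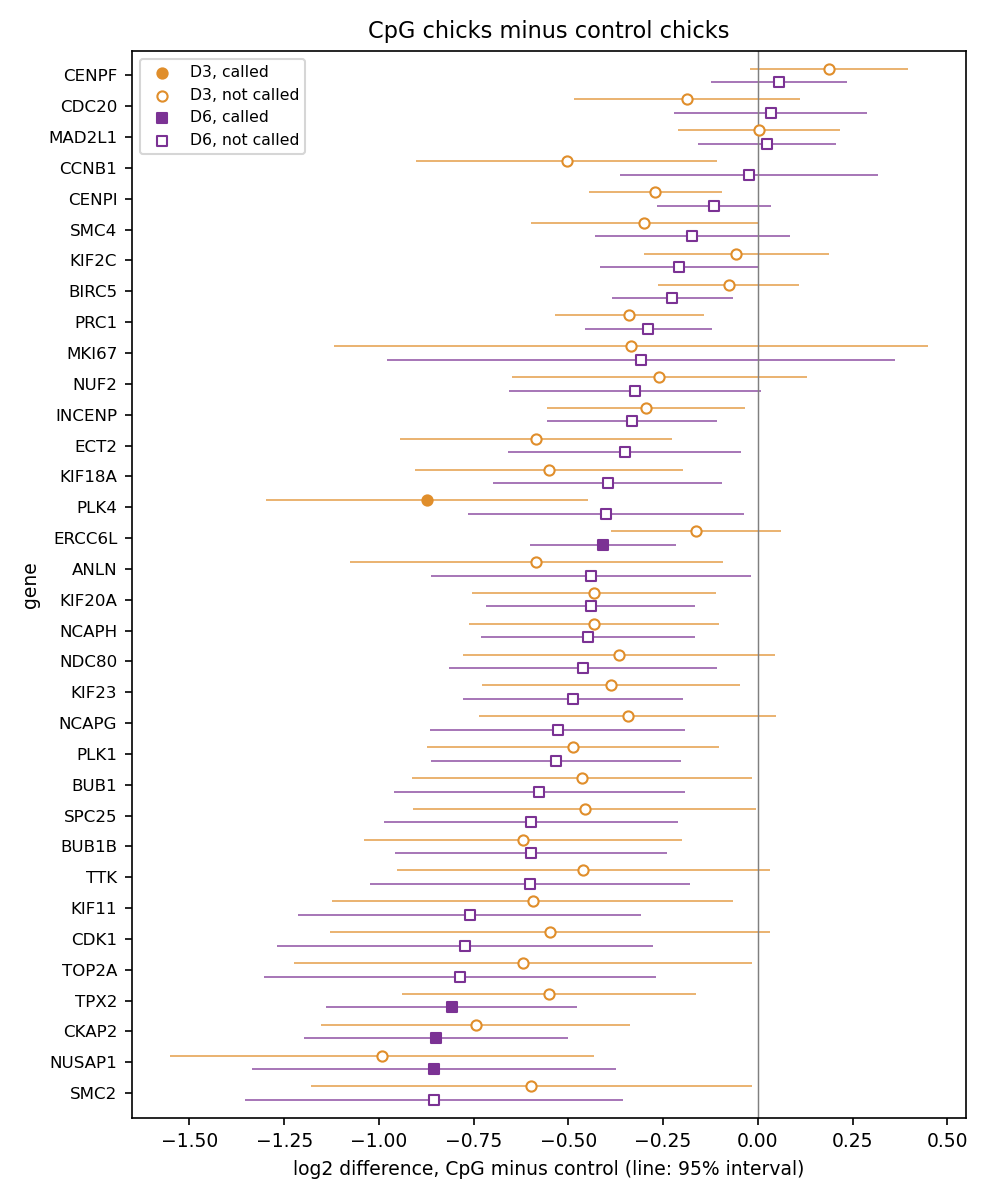
Log2 difference, CpG minus control, of each member (rows) at D3 (circles) and D6 (squares) with its 95% interval; filled marks passed the test. Nearly all marks lie left of 0 at both times, and TPX2, CKAP2, NUSAP1 and ERCC6L at D6 and PLK4 at D3 are filled.

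Pooling both later times gives a more precise view, since the D3 and D6 effects are averaged over 38 chicks. It uses the same chicks and is no further evidence beside them. In this mean effect 24 of 34 members fell and none rose, against 2.94% of all probe sets called lower, with a median of -0.44 against -0.02 over all genes. By role the falls covered 3 of 4 entry kinases and cyclins, 6 of 7 spindle genes, 3 of 6 kinetochore genes, 3 of 5 checkpoint and anaphase genes, 1 of 2 passenger genes, 4 of 6 condensin and chromosome genes and 4 of 4 cytokinesis genes. The count was between 20 and 26 with each array left out, 25 without the arrays that stood apart and 20 in a fit of these 38 arrays alone. It was 2 with 6 cell type scores as covariates, where CKAP2 and PLK4 alone passed and the other 22 calls were lost.

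Of the spindle genes NUSAP1 fell by 0.92 ± 0.18 (limma adjusted p = 0.000949), CKAP2 by 0.80 ± 0.13 (8.8e-05), TPX2 by 0.68 ± 0.13 (0.000438) and KIF11 by 0.68 ± 0.17 (0.0103). Of the genes of chromosome structure SMC2 fell by 0.73 ± 0.19 (limma adjusted p = 0.0127) and TOP2A by 0.70 ± 0.20 (0.0208). SMC2 lies on the Z chromosome in the reference gene table, and with the mean of 14 W-linked genes as a covariate for the unlabelled sex it fell by 0.77 (0.0043). The kinases PLK4 and CDK1 fell by 0.64 ± 0.14 (limma adjusted p = 0.00273) and 0.66 ± 0.19 (0.0238). The checkpoint genes BUB1B and TTK fell by 0.61 ± 0.14 (limma adjusted p = 0.00365) and 0.53 ± 0.16 (0.0338). The call of CDK1 was lost without control D3 chick 87 or 91 (and in a fit of the 38 arrays, limma adjusted p = 0.0549), and that of TTK without any 1 of 9 arrays.

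The 10 members that did not pass in the mean effect were BIRC5, CCNB1, CDC20, CENPF, KIF2C, MAD2L1, MKI67, NUF2, NDC80 and SMC4. NDC80 differed by -0.41 ± 0.14 (limma adjusted p = 0.0506) and SMC4 by -0.24 ± 0.10 (0.136). MAD2L1, a checkpoint protein, differed by 0.01 ± 0.07 (95% interval -0.13 to 0.15) and KIF2C by -0.13 ± 0.08 (-0.29 to 0.03).

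The age change was followed in CpG chicks too. At D3 against 3 h, 22 members rose and 1, CDC20, fell, with a median of 0.58, while 9.68% of all probe sets were called higher and 9.74% lower. KIF18A, PRC1, CENPI, ERCC6L, BUB1 and ANLN rose in control chicks but did not pass in CpG chicks, while none of these differences between treatments passed a test of its own with limma. For PRC1 and CENPI this depended on the probe set. Their other probe sets rose in CpG chicks, by 0.41 (limma adjusted p = 8.06e-05) and 0.78 (3.35e-05). TOP2A rose by 1.37 ± 0.29, TPX2 by 1.36 ± 0.18, CDK1 by 1.32 ± 0.27, SPC25 by 1.11 ± 0.21 and PLK4 by 1.01 ± 0.20. TPX2 and KIF2C were higher in all 8 D3 CpG chicks than in all 3 h CpG chicks, which held for 0.952% of all probe sets. KIF20A rose by 0.50 ± 0.15, and the other rises of the largest 10, those of SMC2, NUSAP1, TTK, KIF2C and PLK1, were between 0.77 and 1.00. The count was 18 without CpG D3 chick 13 (18 higher and none lower) and 2 with 6 cell type scores as covariates.

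At D6 against D3 in CpG chicks, 22 members fell and 1, CENPI, rose, with a median of -0.48, while 12.3% of all probe sets were called lower and 14.8% higher. NUSAP1 fell by 1.07 ± 0.27 (limma adjusted p = 0.0028) and TPX2 by 0.83 ± 0.18 (0.000963). KIF2C fell by 0.82 ± 0.12 (1.68e-06), with all 10 D6 chicks below all 8 D3 chicks, which held for 0.452% of all probe sets. KIF11, TOP2A, CDK1, SMC2, CKAP2, SPC25 and PLK4 fell by between 0.62 and 0.90. Of these, TOP2A, CDK1, SMC2, SPC25 and PLK4 lost their call without 1 array or another, while KIF11 and CKAP2 kept it. The count was 11 without CpG D3 chick 16, the chick with the highest score of its group, 28 without CpG D3 chick 18, the chick with the lowest, and 1 with 6 cell type scores as covariates. The other probe set of CENPI fell in this comparison, by 0.43 (limma adjusted p = 0.0205), where the used one rose by 0.32 (0.00421).

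In CpG chicks at D6 the members were near their 3 h level. At D6 against 3 h, 3 rose (TPX2 by 0.53 ± 0.17, CENPI by 0.35 ± 0.08 and INCENP by 0.30 ± 0.12) and 6 fell (CCNB1, CDC20, CENPF, BIRC5, NUF2 and MKI67), with a median of 0.12. Of all probe sets 24.1% were called higher and 20.5% lower. TPX2 had 7.16, 7.70 and 8.27 in D6 CpG chicks, against 6.73, 7.19 and 7.88 in 3 h CpG chicks, and 3 of 10 D6 chicks lay above all 3 h chicks. PLK4 differed by 0.39 ± 0.19 (limma adjusted p = 0.0904). In a fit of these 20 arrays alone 9 members rose and 5 fell, and the calls of MKI67, NUF2 and INCENP were lost without any 1 of 10, 7 and 4 of the arrays. With the cell type scores 3 members passed, all of them lower.

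**Figure D5:**
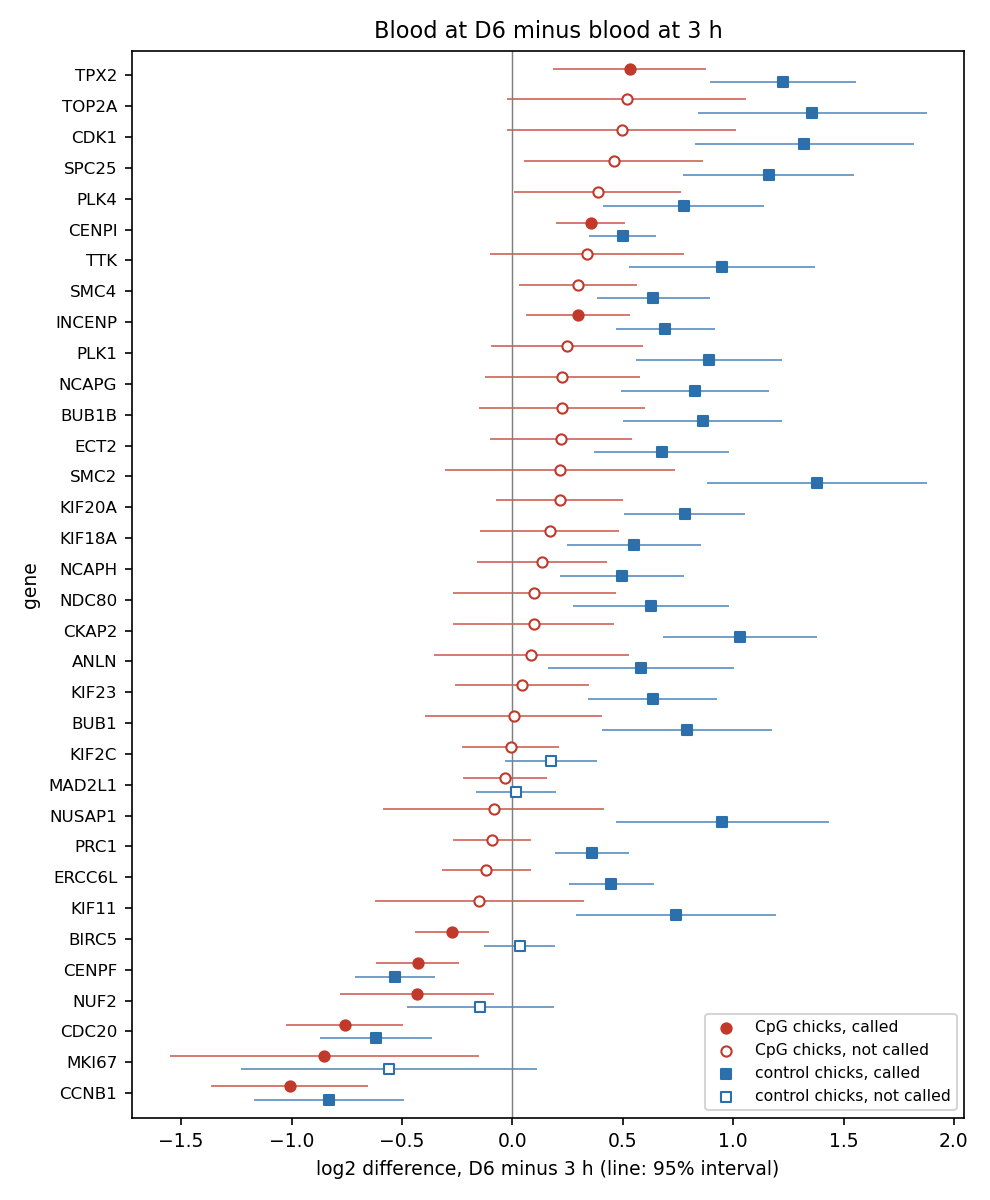
Log2 difference, D6 minus 3 h, of each member (rows) in CpG chicks (circles) and control chicks (squares) with its 95% interval; filled marks passed the test. In most rows the control mark lies right of 0 and the CpG mark lies to its left, closer to 0. CENPF is the 1 row of 34 where the CpG mark lies to the right. Its other probe set, not drawn, gave -0.08 in CpG chicks and 0.87 in control chicks.

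Whether the CpG effect itself differed between times was tested as an interaction. Relative to the effect at 3 h, the D6 effect was lower in 33 of 34 members, with a median of -0.51, and 21 members had an unadjusted p below 0.05. One, ERCC6L, passed (-0.57 ± 0.14, limma adjusted p = 0.0323), where 0.0433% of all probe sets were called lower. Its own effect was 0.16 at 3 h and -0.41 at D6, and its call was lost when any 1 of 7 of 42 arrays was left out and with the cell type scores. From 3 h to D3, 33 members were below 0 with a median of -0.50, none passed with limma, 18 had an unadjusted p below 0.05, and 0.00961% of all probe sets were called in either direction. For PLK4 the value was -0.86 ± 0.28 (limma adjusted p = 0.43) and for TPX2 -0.44 ± 0.26 (0.768). Between D3 and D6 no member passed with limma, none had an unadjusted p below 0.05, and 0% of all probe sets were called in either direction. The counts of members called were 0 under every alternative setting for both of these changes. The PLK4 effect at D6 minus that at D3 was 0.47 ± 0.28, with a 95% interval of -0.09 to 1.03, and that of TPX2 was -0.26 ± 0.25 (-0.77 to 0.25).

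Some members departed from this pattern. CCNB1 is a B-type cyclin, the partner of CDK1. The reference gene table lists cyclin B2 names as synonyms of the gene this probe set stands for and places it on chromosome 10. Which B-type cyclin the probe set reads was not tested. At 3 h CCNB1 had 8.83, 9.10 and 9.45 in CpG chicks and 8.25, 9.01 and 9.42 in control chicks. At D6 it had 7.73, 7.97 and 8.75 in CpG chicks and 7.57, 8.13 and 8.98 in control chicks. From 3 h to D6 it fell by 1.01 ± 0.18 in CpG chicks (limma adjusted p = 7.44e-06), with all 10 D6 chicks below all 3 h chicks, and by 0.83 ± 0.17 in control chicks (5.63e-05). Such a full separation in CpG chicks held for 1 of the 34 members and for 2.87% of all probe sets. CpG and control chicks differed by -0.02 at D6 and by -0.50 ± 0.20 at D3, and neither passed.

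CDC20, the activator of the anaphase-promoting complex, fell from 3 h to D6 by 0.76 ± 0.13 in CpG chicks (limma adjusted p = 6.92e-06) and by 0.62 ± 0.13 in control chicks (6.4e-05). Below all 3 h chicks of their treatment lay 9 of 10 CpG chicks and 9 of 12 control chicks at D6. MKI67, a protein that coats mitotic chromosomes and is used as a proliferation marker, varied widely, with 7.24, 9.37 and 10.97 in CpG chicks and 7.58, 9.17 and 10.63 in control chicks at D6. In control chicks at D3 against 3 h it differed by -0.13 ± 0.37 (limma adjusted p = 0.853). All 5 of its probe sets gave negative differences there, and also at D6 against 3 h in control chicks, where they ran from -0.83 to -0.51.

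For 2 kinetochore genes the probe sets disagreed. The probe set used for CENPF, a large outer kinetochore protein, fell by 0.33 ± 0.10 in control chicks at D3 against 3 h, while its other probe set rose by 1.43 (limma adjusted p = 4.53e-06). In CpG against control chicks at D6 the used probe set differed by 0.05 (0.869) and the other by -0.79 (0.0323). The mean CpG effect was 0.12 in the used one (limma adjusted p = 0.303) and -0.72 in the other (0.00381). For CENPI, an inner kinetochore protein, both probe sets rose in that age comparison, by 0.33 in the used one and by 1.21 in the other. Both fell in the mean CpG effect, by 0.19 and 0.36. At D6 against D3 they had opposite signs in both treatments, and in control chicks the used one differed by 0.17 (limma adjusted p = 0.151) while the other fell by 0.48 (0.0119). All 4 probe sets of NCAPH and both of PRC1, a crosslinker of midzone microtubules, rose at D3 against 3 h in control chicks and fell in the mean CpG effect. Of the 4 for NCAPH, 2 gave the same values throughout and are not separate readings. For PRC1 they differed at D6 against D3 in control chicks, with -0.31 in the used probe set and 0.01 in the other.

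MAD2L1 and KIF2C rose and fell with age without a CpG difference that passed at any time. KIF2C had 6.90, 7.17 and 7.56 in CpG chicks, against 6.76, 7.27 and 7.70 in control chicks at D3. BIRC5 (survivin, of the passenger complex) and NUF2, a subunit of the NDC80 complex, did not pass at D3 against 3 h in control chicks (0.22 ± 0.09 with limma adjusted p = 0.0562, and 0.27 ± 0.18 with 0.305). At D6 against 3 h in CpG chicks they fell by 0.27 ± 0.08 and 0.43 ± 0.17.

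Chicks of a group differed from one another across many members at once. In control chicks at D6, chick 103 had the highest score, 1.91, with the group's highest value in 29 of 34 members, and lay above the group median in all 34. In control chicks at D3, chick 91 scored 2.15 and was highest in 22 members. Spread was smaller in CpG chicks at D6, with a median SD over the members of 0.27 against 0.46 in control chicks, and 27 of 34 members varied less in CpG chicks. At 3 h that median was 0.25 in CpG and 0.24 in control chicks, and at D3 it was 0.44 and 0.51. The smaller SD was that of CpG chicks in 20 of 34 members at 3 h and, as at D6, in 27 of 34 at D3. The fit assumes 1 spread per gene for all groups, so its errors can be too small where the compared groups vary more. For PLK4 the SD was 0.60 in CpG and 0.59 in control chicks at D3, against 0.30 and 0.38 at 3 h. Of the 31 members placed in the reference gene table (assembly GRCg7b, used for names and chromosomes alone), none shared more than 4 to a chromosome, and they lay on 16 chromosomes.

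A further list of 88 genes of mitosis, of which 57 were measured, was set beside them. In the mean CpG effect 22 of 57 fell and none rose, with a median of -0.23, against 2.94% of all probe sets called lower. MASTL, a kinase that restrains a phosphatase during mitosis, fell by 0.64 ± 0.12 (limma adjusted p = 0.000338), NEK2, a centrosome kinase, by 0.81 ± 0.16 (0.000711), GTSE1 by 0.64 ± 0.13 and MYBL2, a transcription factor of late cell cycle genes, by 0.46 ± 0.11. MASTL, CEP55 and NEK2 fell at D6 alone as well, where 0.591% of all probe sets were called lower. None passed at D3 with limma, where 22 had an unadjusted p below 0.05. In control chicks 36 of 57 rose and 1 fell at D3 against 3 h, with NEK2 higher by 2.12 ± 0.23. There 11.8% of all probe sets were called higher and 13.0% lower. At D6 against D3, 21 fell, among them STIL, a centriole protein, by 0.90 ± 0.13, while 7.95% of all probe sets were called lower.

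Genes of DNA replication in S phase (45 of 59 measured) were mostly higher at D3 as well. At D3 against 3 h in control chicks 24 rose and 3 fell, while 11.8% of all probe sets were called higher and 13.0% lower. E2F1, a transcription factor that opens S phase, rose by 2.33 ± 0.23. In the mean CpG effect 4 fell and 1 rose, with a median of -0.11 beside -0.44 in the mitosis genes. The shares of all probe sets called in that effect were 2.94% lower and 3.79% higher. The mean z-score of these S phase genes at D3 was 0.55 ± 0.42 in CpG and 0.64 ± 0.52 in control chicks (mean ± SD). At D6 it was -0.39 ± 0.12 in CpG and -0.01 ± 0.28 in control chicks. CDC45, a part of the replicative helicase, fell by 0.55 ± 0.14 at D6 (limma adjusted p = 0.0218). RPA3, of a complex that binds single-stranded DNA, rose by 0.34 ± 0.10 in the mean effect. The difference between these lists was not tested. Subunits of the anaphase-promoting complex (10 of 15 measured) gave no call in any CpG effect with limma, and 2 of 10 had an unadjusted p below 0.05 in the mean effect.

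Markers of blood cell types moved in the same comparisons. Heterophil genes (granulocytes of birds, 11 measured) rose in CpG chicks, 6 at D3, 4 at D6 and 9 in the mean effect, with LECT2 higher by 2.18 ± 0.33 at D3. Of all probe sets 0.240% were called higher in CpG chicks at D3, 1.52% at D6 and 3.79% in the mean effect. Their mean z-score ran from 0.49 to 2.51 in CpG chicks and from -0.49 to 0.73 in control chicks at D3, and from -1.02 to 1.38 in CpG chicks and from -1.22 to -0.32 in control chicks at D6. Monocyte genes (8 measured) rose in 1, 5 and 6 cases in these effects and thrombocyte genes (10 measured) in 1, 3 and 6. Monocyte scores ran from 0.03 to 1.77 in CpG chicks and from -0.76 to 0.85 in control chicks at D3, and from -0.22 to 1.18 in CpG chicks and from -1.30 to -0.18 in control chicks at D6. The highest D3 values of the heterophil and monocyte scores are those of CpG chick 20 and control chick 86, whose arrays stood apart.

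Erythroid genes (11 measured) gave no call at D3 and 1 at D6, where BPGM, a red cell enzyme, fell by 0.81 ± 0.14. At D6 0.591% of all probe sets were called lower. Their score ran from -1.02 to 0.61 in CpG chicks and from 0.22 to 0.70 in control chicks at D6. The -1.02 is that of CpG chick 31, whose array stood apart, and the next lowest CpG score was 0.01. In control chicks at D3 against 3 h, 5 erythroid genes rose and 3 fell, and 7 thrombocyte genes fell. In that comparison 11.8% of all probe sets were called higher and 13.0% lower. Genes of B cells (8 measured), T cells (13) and blood progenitors (9) gave no call with limma in the mean CpG effect, where 2, 5 and 2 of them had an unadjusted p below 0.05. No array value in the table was 0.

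With 6 cell type scores added to the fit as covariates, 2 members passed in the mean CpG effect, CKAP2 and PLK4, against 24 without the scores, and the median over the members was -0.49. CKAP2 then differed by -0.92 (limma adjusted p = 0.0315) and PLK4 by -0.90 (0.0364). No member passed at D3 or at D6 alone in that fit, where medians were -0.55 and -0.35. In control chicks 26 members rose at D3 against 3 h in that fit, with a median of 1.09. The part of cell mixture in these results was not tested beyond this fit.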

How the data were processed

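Total RNA of whole blood was labelled and hybridised to 1 Affymetrix array per chick. The authors deposited log2 expression values per probe set, made with RMA per the submitters' processing notes. Its version is not given in the sources used here. These log2 values were used without a filter. The platform annotation gave 12300 of 20804 probe sets exactly 1 gene symbol.

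One mean per group was fitted over all 58 arrays with limma 3.58.1 in R 4.3.3 (lmFit and eBayes, 52 residual degrees of freedom). The p-values of each of 13 contrasts were adjusted by Benjamini-Hochberg over 20804 probe sets, with a threshold of 0.05. Intervals are at 95%. Chicks carry IDs of their own in the labels and were taken as replicates.

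The members and gene lists were chosen with earlier results of these data known. TPX2 and PLK4 were known from those results and are named in every CpG effect for that reason. Named were all members that passed, or the 10 with the largest change, the member with the smallest p of each role, and TPX2, PLK4, CDK1, CCNB1 and MKI67; of other mitosis and S phase genes up to 4 that passed per comparison. KIF2C, MAD2L1, NUF2 and BIRC5, where outside this rule, were chosen after their values were seen. Alternatives were a filter on dim probe sets (the lowest 40%), array weights, repeated quantile normalization, median centring, a W-linked mean or 6 cell type scores as covariates, leaving out arrays that stood apart (over 3 scaled median absolute deviations below the median correlation), fitting the compared groups alone, and leaving out each array. The number of arrays limits the precision.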

Additional observations from a re-analysis of the deposited data

Results flagged for a closer look

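Single chicks lay far from the rest of their group in 7 of 175 tests of a member or of the score in a group of 8 or 10 chicks (Dixon's criterion, by which chance flags about 1 in 20). Control chicks at D6 were not tested, since that group has 12. CpG 3 h chick 2 gave 3 of the 7, with PLK4 at 6.64 (others 5.51 to 6.04), TTK at 5.82 (others 4.69 to 5.28) and NCAPG, a condensin subunit, at 6.30 (others 5.69 to 5.99). That chick had the highest score of its group. In control chicks at 3 h, NUSAP1 was 5.53 in chick 81 (others 6.21 to 6.83), KIF2C was 6.97 in chick 78 (others 6.19 to 6.48) and ECT2 was 6.09 in chick 74 (others 4.74 to 5.35). In CpG chicks at D6, CDC20 was 8.54 in chick 31 (others 7.34 to 7.80). The arrays of chicks 31 and 74 are among the 4 that stood apart from their groups.

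The CpG effect on ERCC6L differed between times by the interaction test, with the D6 effect minus the 3 h effect at -0.57. As given above, that call was lost without any 1 of 7 of 42 arrays and with the cell type scores.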

How the results depend on the processing

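Under 8 alternative settings, 82 of 104 counts of members called stayed within 1.5 times the values reported. The 82 include counts that were 0 both as reported and under every setting. Those are the CpG effect at 3 h and its changes from 3 h to D3 and from D3 to D6. With array weights, 4 members passed at D3, 12 at D6, 29 in control chicks at D6 against D3 and 2 in the change of the CpG effect from 3 h to D6. Without dim probe sets, 9 passed at D6 and 3 in that change. With repeated quantile normalization none passed at D3 with limma, nor without the arrays that stood apart, where control D6 against D3 gave 21. In fits of the compared groups alone the counts were 0 at D3, 8 in control D6 against D3, 2 in the change from 3 h to D6, and 14 in CpG D6 against 3 h, where 9 rose and 5 fell. With 6 cell type scores, 0 passed at D3, 0 at D6, 2 in the mean effect, 3 in control D6 against D3, 15 in control D6 against 3 h, 2 in CpG D3 against 3 h, 1 in CpG D6 against D3, 3 in CpG D6 against 3 h and 0 in the change from 3 h to D6. The causes were not tested. Of 670 values of single genes, 606 kept their call or lack of a call and 64 lost the call (47 with cell type scores). In 0 cases did the sign change where either fit gave a call. Changes of sign where neither fit gave a call were not counted.

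With each array left out, counts ran from 0 to 0 at 3 h, 0 to 4 at D3 (4 without control chick 90), 3 to 12 at D6, 20 to 26 in the mean effect, 29 to 30 in control D3 against 3 h, 7 to 26 in control D6 against D3, 28 to 29 in control D6 against 3 h, 18 to 25 in CpG D3 against 3 h, 11 to 28 in CpG D6 against D3, 7 to 11 in CpG D6 against 3 h, 0 to 0 in the changes from 3 h to D3 and D3 to D6, and 0 to 3 in that from 3 h to D6. No paired analysis was possible because the groups share no chick numbers. Sex and batch are not in the labels, and signal over background is unknown.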
